A study of Homo sapiens with 6 samples.

Results

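The Notch genes described here are 4 receptors (NOTCH1, NOTCH2, NOTCH3 and NOTCH4), 4 ligands (JAG1, JAG2, DLL1 and DLL4) and 2 transcriptional targets (HES1 and HEY1). They were chosen by symbol through the gene ID in each probe set's name. All 10 were measured, by 1 probe set each, among 23931 named genes (24726 probe sets). The samples are 6 subcutaneous tumours that Huh7 cells, an established line of human hepatocellular carcinoma, formed in nude mice. In 3 of them (IR-A) the cells carried the plasmid pRcCMVi.hIR-A(GFP), from which they overexpressed insulin receptor isoform A, and in the other 3 (control) the empty vector. Cells of both groups had been selected with G418 and sorted for green fluorescence, and the sources used here give neither the age of the mice nor whether the selected lines were clones. Total RNA was hybridised to Affymetrix arrays, 1 per tumour, and the values are log2 signals, so that a difference of 1 is a doubling.

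Notch receptors are cut after a ligand on a neighbouring cell binds them. The metalloprotease ADAM10 and then the gamma-secretase complex release the intracellular part, which enters the nucleus, binds the DNA-binding protein RBPJ and switches on genes such as HES1 and HEY1, which encode transcriptional repressors. In liver, JAG1 and NOTCH2 are known for their part in forming bile ducts. The activity of the pathway is set largely by protein cleavage, which transcript levels do not measure.

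The comparison asks how transcripts of these genes differed between IR-A and control tumours. Differences were tested with limma, fitted across all probe sets, with Benjamini-Hochberg adjustment and a threshold of 0.05. An exact two-sided permutation test of 3 against 3 tumours cannot go below p = 0.1. Nothing in the labels ties tumours to separate mice or cultures, so the spread behind each p-value is that between these samples, and it may be technical. In a whole tumour, fewer cells of a type and less RNA per cell cannot be told apart.

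The added receptor was seen in every IR-A tumour: INSR read 7.61 to 8.47 in control and 10.65 to 11.31 in IR-A tumours. Even this difference of 2.95 did not pass the adjusted threshold (limma adjusted p = 0.0769). Markers of Huh7 and hepatocytes were bright, with a mean of 11.71 to 12.04 over the 11 measured of 13 listed in control tumours and 12.13 to 12.24 in IR-A tumours. These ranges did not overlap, and 10 of the 11 markers had a difference above 0. Control tumour 2 stood apart from its group, with a mean correlation across probe sets of 0.982 with the other controls and 0.987 with the IR-A tumours. The part of the hepatocyte markers in the results on Notch genes was not tested, and values from fits without control tumour 2 stand among the results.

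In IR-A tumours the signals of the receptor NOTCH2 and the ligand JAG1 lay above those of all control tumours, by 2.57-fold and 1.45-fold on average. The target HES1 was 1.30-fold higher on average, with groups that overlapped. NOTCH1, NOTCH3, NOTCH4, JAG2, DLL1, DLL4 and HEY1 overlapped as well. None of the 10 passed the adjusted threshold in limma, as none of all probe sets did (0%). At an unadjusted p under 0.05, 2 of 10 were higher and 0 lower, against 7.10% higher and 7.03% lower over all probe sets. The groups did not overlap in the same 2 of 10, both higher, against 7.73% of all probe sets higher and 9.45% lower. The median difference of the 10 was 0.15, with 7 above 0, and that of all probe sets was -0.026, with 44.0% above 0.

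**Figure D1:**
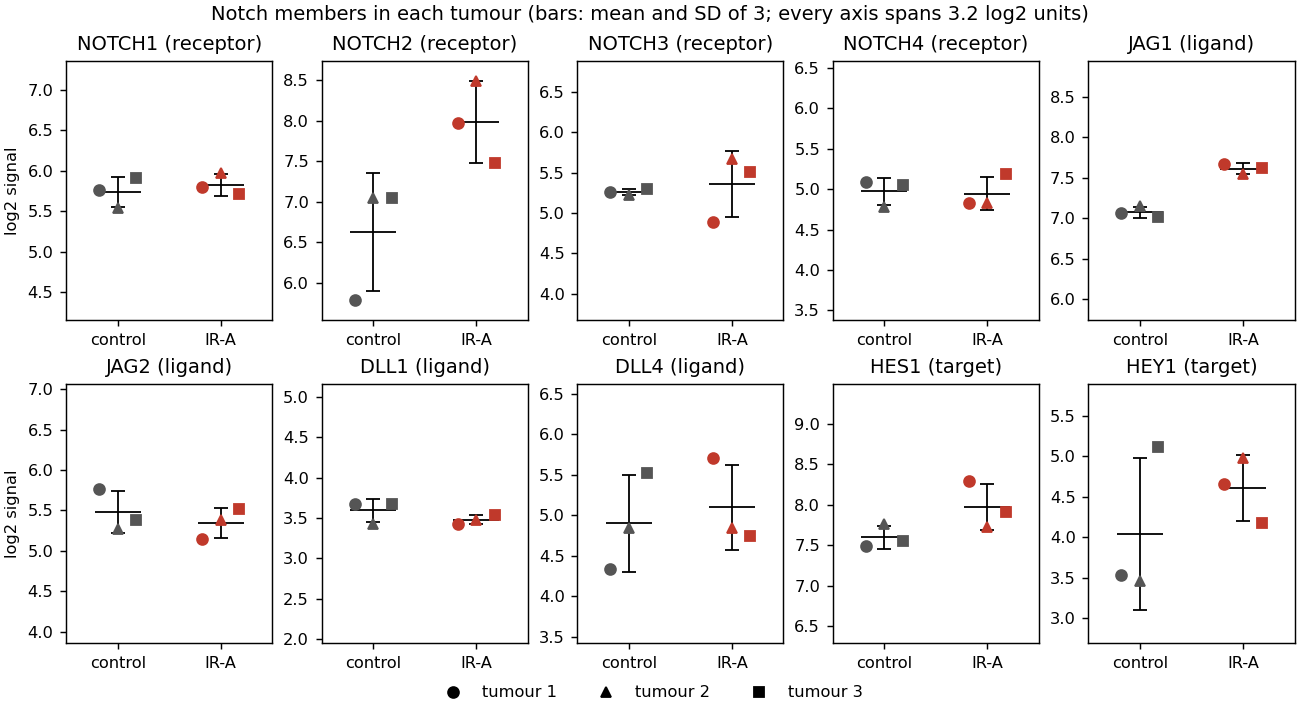
Log2 signal (y axis) of the 10 Notch genes in the 3 control and 3 IR-A tumours (x axis), with 1 symbol per tumour number and bars for the mean and SD of 3. The groups separate in NOTCH2 (5.78 to 7.04 against 7.48 to 8.50) and JAG1 (7.01 to 7.15 against 7.54 to 7.68) and overlap in the others.

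NOTCH2, the receptor that pairs with JAG1 in bile duct formation, read 5.78, 7.04 and 7.04 in control tumours 1 to 3. It read 7.97, 8.50 and 7.48 in IR-A tumours 1 to 3. Control tumour 1 lay far below the other controls, and the closest tumours of the 2 groups were 0.44 apart. The means were 6.62 ± 0.73 (SD, n = 3) and 7.98 ± 0.51 (SD, n = 3). The log2 difference was 1.36 with SE 0.41, a 95% interval from 0.38 to 2.33 and an adjusted p of 0.233 in limma (unadjusted p = 0.0136). The exact permutation test gave p = 0.1, the smallest it can give. Without control tumour 1 the difference was 0.94. NOTCH2 has partial near-identical copies in the human genome, the NOTCH2NL genes. No probe set carried a NOTCH2NL symbol, so these copies have no values here. Whether the NOTCH2 probe set separates them was not checked.

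NOTCH1, the broadly expressed founding receptor of the family, read 5.77, 5.54 and 5.91 in control and 5.79, 5.97 and 5.71 in IR-A tumours. Its groups overlapped throughout, with a difference of 0.09 and a 95% interval from -0.23 to 0.40 (limma adjusted p = 0.824). NOTCH3, known as the receptor of vascular mural cells, read 5.26, 5.22 and 5.30 in control tumours, a narrow range. The IR-A tumours lay on both sides of it at 4.89, 5.66 and 5.51, with a difference of 0.10 and an interval from -0.38 to 0.57 (adjusted p = 0.880). NOTCH4, known from endothelium, read 5.09, 4.78 and 5.05 in control and 4.83, 4.83 and 5.19 in IR-A tumours. Its difference of -0.028 had an interval from -0.37 to 0.32 (adjusted p = 0.959), so a doubling or halving of the array signal lies outside the intervals of these 3 receptors.

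Nude mice keep their own vessels and stroma, while the array reads human genes, so RNA of the host counts only as far as it hybridises. The mean over 16 endothelial markers was 3.88 to 3.95 in control and 3.81 to 3.91 in IR-A tumours. On all 6 arrays 12 of the 16 read below the array's median, which ran from 4.66 to 4.74. PECAM1, an adhesion protein of endothelium, differed by 0.51 (limma unadjusted p = 0.0403). It was the only 1 of the 16 at an unadjusted p under 0.05, against 14.1% of all probe sets. Of the 16, 12 had a difference below 0, and the median was -0.06. The mean over 11 mural markers was 4.45 to 4.66 in control and 4.47 to 4.53 in IR-A tumours. KCNJ8, a potassium channel subunit of pericytes, had the smallest p of that list, with a difference of -1.09. The 11 mural differences ran from -1.09 to 0.47, with 5 above 0, 6 below and a median of -0.06. Macrophage markers had means of 5.10 to 5.22 in control and 5.29 to 5.34 in IR-A tumours over 12 genes, without overlap. TYROBP, a signalling adaptor of myeloid cells, had the smallest p of that list, with a difference of 1.78 and no overlap. FCER1G of the same list was lower in all IR-A tumours, with a difference of -0.60. Of the 12 macrophage markers, 6 had a difference above 0 and 6 below, and the median was 0.0078. Fibroblast markers had means of 4.30 to 4.62 and 4.58 to 4.67 over 10 genes. Of these, LUM, a matrix proteoglycan, differed by 1.26 and the collagen gene COL1A2 by 0.83, both higher in all IR-A tumours. The 10 fibroblast differences ran from -0.87 to 1.26, with 6 above 0, 4 below and a median of 0.08. LUM was below the array's median on all 6 arrays. None of the markers passed the adjusted threshold in limma. The part of host cells in the Notch values was not tested.

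JAG1, a ligand of the Jagged class, had the smallest p of the 10 genes. Its control values of 7.06, 7.15 and 7.01 and its IR-A values of 7.68, 7.54 and 7.62 were tight within each group. The closest tumours of the 2 groups were 0.39 apart, against an SD of 0.07 (n = 3) in each group. Group means were 7.07 (control) and 7.61 (IR-A). The difference of 0.54 had SE 0.09 and a 95% interval from 0.32 to 0.76. In limma its unadjusted p was 0.000690 and its adjusted p 0.131, and the exact permutation p was 0.1. Control tumour 2 had the highest control value, and without it the difference was 0.58 with an adjusted p of 0.0589. The unadjusted p of JAG1 was not lower in that fit (0.00118 in limma), while 308 probe sets passed the adjusted threshold. The other fits with 1 tumour left out gave JAG1 an adjusted p of 0.221 to 0.477.

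JAG2, the second Jagged ligand, read 5.77, 5.28 and 5.38 in control and 5.15, 5.38 and 5.51 in IR-A tumours. Its ranges overlapped, and the difference was -0.13 with an interval from -0.52 to 0.27 (limma adjusted p = 0.793). DLL1, a Delta-like ligand, read 3.68, 3.43 and 3.68 in control and 3.43, 3.47 and 3.54 in IR-A tumours. It lay below the array's median on all 6 arrays, where differences are compressed, and its difference was -0.11 (interval -0.37 to 0.14, adjusted p = 0.701). DLL4, the Delta-like ligand of sprouting vessels, was the most variable ligand, at 4.33, 4.84 and 5.53 in control and 5.70, 4.84 and 4.75 in IR-A tumours. Its 2 groups covered nearly the same range, and the interval of its difference of 0.20 was wide, from -0.68 to 1.08 (adjusted p = 0.865).

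**Figure D2:**
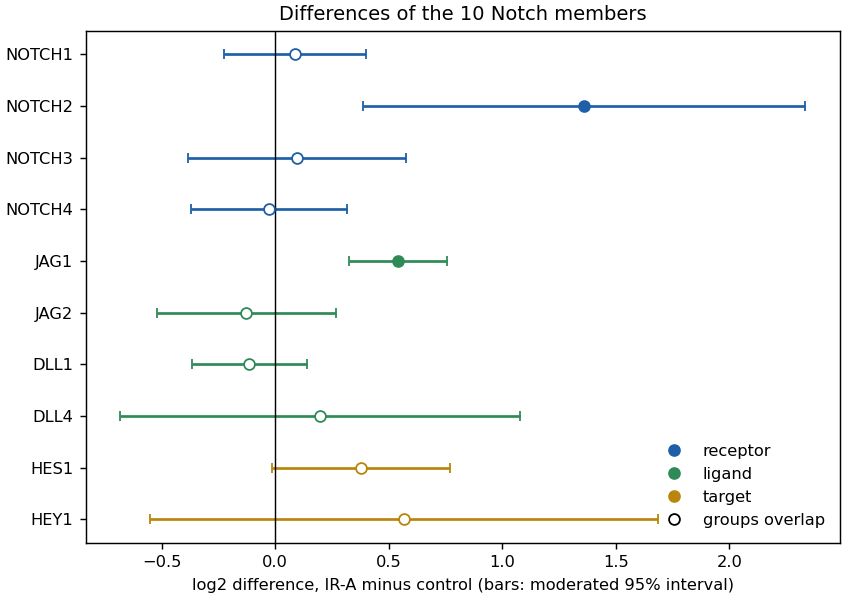
Log2 difference (x axis, IR-A minus control) of each Notch gene (y axis), with the moderated 95% interval from limma; colours give the role and open points have overlapping groups. The intervals of NOTCH2 (0.38 to 2.33) and JAG1 (0.32 to 0.76) lie above 0, and that of HES1 starts at -0.015.

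HES1, the repressor most often read as a sign of Notch signalling, had 7.49, 7.76 and 7.55 in control and 8.29, 7.73 and 7.91 in IR-A tumours. IR-A tumour 1 was the highest of all, while IR-A tumour 2 lay just below control tumour 2, so the groups overlapped at that pair. The means were 7.60 ± 0.14 and 7.98 ± 0.29 (SD, n = 3 each). The difference was 0.38 with SE 0.16 and an interval from -0.015 to 0.77 (limma unadjusted p = 0.0572, adjusted p = 0.376, exact permutation p = 0.2). It was 0.50 without IR-A tumour 2 and 0.22 without IR-A tumour 1. HES1 also responds to signals other than Notch.

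HEY1, a repressor of the same structural family that is prominent in vessels, split the control tumours at 3.53, 3.46 and 5.12. The IR-A tumours read 4.66, 4.98 and 4.17, all above control tumours 1 and 2 and all below control tumour 3. The control SD of 0.94 was the largest of the 10 genes, and the difference of 0.57 had an interval from -0.55 to 1.68 (limma adjusted p = 0.657). Without control tumour 3 it was 1.11 with an unadjusted p of 0.00529 and an adjusted p of 0.243. The other fits with 1 tumour left out gave 0.28 to 0.78, with unadjusted p of 0.203 to 0.595 in limma. In 2 of 3 control tumours and in 4 of 6 tumours overall the signal was below the array's median.

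The promoters of HES1, JAG1 and NOTCH2 are shown because HES1 is the target through which Notch output is read, and the other 2 genes are those whose groups did not overlap. Each line gives the 250 bases before the gene start from RefSeq (GRCh38.p14), 5′ to 3′ on the gene's own strand, at chr3:194135898-194136147 (plus strand) for HES1, chr20:10674000-10674249 (minus strand) for JAG1 and chr1:120069663-120069912 (minus strand) for NOTCH2. Capitals mark TGGGAA, the core of the RBPJ motif, or its reverse complement TTCCCA, searched on both strands.
HES1: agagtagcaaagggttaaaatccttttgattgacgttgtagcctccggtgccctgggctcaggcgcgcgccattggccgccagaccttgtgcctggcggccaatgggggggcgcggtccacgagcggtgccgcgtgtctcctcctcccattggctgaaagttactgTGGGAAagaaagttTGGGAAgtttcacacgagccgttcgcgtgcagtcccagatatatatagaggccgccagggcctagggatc
JAG1: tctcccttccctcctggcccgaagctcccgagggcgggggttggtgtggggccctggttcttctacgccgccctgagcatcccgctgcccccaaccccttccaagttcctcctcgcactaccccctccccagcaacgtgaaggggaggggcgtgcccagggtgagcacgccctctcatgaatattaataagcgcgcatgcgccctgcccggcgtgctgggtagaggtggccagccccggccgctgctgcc
NOTCH2: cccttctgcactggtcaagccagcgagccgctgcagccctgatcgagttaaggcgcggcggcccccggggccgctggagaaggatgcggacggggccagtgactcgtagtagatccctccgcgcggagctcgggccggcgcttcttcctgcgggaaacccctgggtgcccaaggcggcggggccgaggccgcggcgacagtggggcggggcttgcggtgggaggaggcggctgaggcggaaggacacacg
HES1 held 2 matches, which began 84 and 70 bases before the gene start, in the same direction and 8 bases apart. The windows of JAG1, NOTCH2 and the other 5 members with an entry held none. RefSeq's table had windows for 8 of the 10 members. Of 27305 windows of this length, 21.1% held at least 1 match and 2.92% at least 2. Among the other reported targets of the pathway, 6 of 13 windows held a match, and those of HES5 and HEYL, named here for this reason, held 2 each. Both were below the array's median on all 6 arrays, and neither passed the test (differences 0.05 and -0.30). A match is a run of letters, not a measured binding site.

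With 1 tumour left out, NOTCH2 ranged from 0.94 to 1.61, JAG1 from 0.51 to 0.58 and HES1 from 0.22 to 0.50 in log2 difference. HEY1 ran from 0.28 to 1.11 and DLL1 from -0.20 to -0.07. The small differences of the other members changed sign. NOTCH1 was -0.013 without control tumour 2, NOTCH3 -0.06 without IR-A tumour 2, and JAG2 0.02 without control tumour 1. NOTCH4 was 0.03 without control tumour 1, IR-A tumour 1 or IR-A tumour 2, and 0.013 without control tumour 3. DLL4 was -0.09 without control tumour 1 and -0.11 without IR-A tumour 1. No member passed the adjusted threshold in any of these fits.

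**Figure D3:**
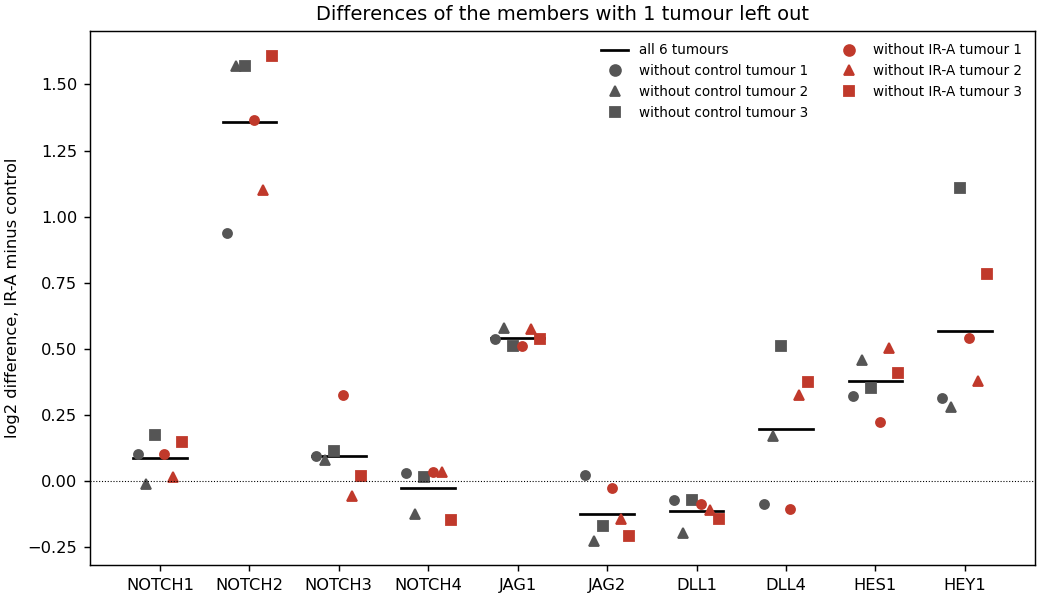
Log2 difference (y axis, IR-A minus control) of each Notch gene (x axis) over all 6 tumours (line) and with 1 tumour left out (symbols). JAG1 stays between 0.51 and 0.58, NOTCH2 drops to 0.94 without control tumour 1, and HEY1 reaches 1.11 without control tumour 3.

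The rest of the pathway was described with a list of 75 other genes in 7 roles, 70 of which were measured. None passed the adjusted threshold in limma (lowest adjusted p = 0.147). At an unadjusted p under 0.05, 10 were higher and 4 lower in IR-A tumours, against 7.10% and 7.03% of all probe sets (14.1% in either direction). That count of 14 was 3 without IR-A tumour 1, 6 without control tumour 1 or 3, 8 without IR-A tumour 2 or 3, and 23 without control tumour 2. Of the 70 genes, 12 (17.1%) had groups without overlap, 7 higher and 5 lower, against 17.2% of all probe sets. The share was therefore near the background. The median difference was -0.0058.

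Receptor glycosylation enzymes modify Notch in the secretory pathway and change its response to ligands. Of 6 measured, 2 were higher and 1 lower without overlap, against 7.73% and 9.45% of all probe sets. LFNG, the sugar transferase Lunatic fringe, read 5.32, 5.27 and 5.90 in control and 4.72, 4.24 and 4.90 in IR-A tumours. All IR-A values lay below all controls, by 0.88 on average (SE 0.23, limma unadjusted p = 0.00766, adjusted p = 0.198). POFUT1, which adds fucose to Notch, read 8.28, 8.43 and 8.10 against 8.82, 8.55 and 8.61, higher by 0.39 in IR-A tumours (SE 0.13, adjusted p = 0.253). EOGT, an N-acetylglucosamine transferase named here after its values were seen, differed by 0.58 (adjusted p = 0.294). The median of the 6 enzymes was -0.16.

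Of 8 measured genes for receptor cleavage, 3 were higher at an unadjusted p under 0.05 and 0 lower, against 7.10% and 7.03% of all probe sets. The median of the role was 0.012. ADAM10, which makes the cut outside the membrane, read 9.60, 9.11 and 9.49 in control and 9.83, 9.79 and 9.85 in IR-A tumours, without overlap. Its difference was 0.42 (SE 0.14, limma adjusted p = 0.269), or 0.28 without control tumour 2. FURIN, the convertase that cuts Notch during its maturation, differed by 0.37 (adjusted p = 0.330) with groups that overlapped. PSEN2, a catalytic subunit of gamma-secretase named here after its values were seen, differed by -0.0059. It was below the array's median on all 6 arrays. NCSTN, another gamma-secretase subunit, also named after its values were seen, was also under that unadjusted threshold. It differed by 0.32 with groups that overlapped (limma adjusted p = 0.340).

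RBPJ, the DNA-binding partner of cut Notch, read 9.14, 9.29 and 9.07 in control and 9.41, 9.37 and 9.45 in IR-A tumours. Both groups were 0.09 apart at their closest, with a difference of 0.24 (SE 0.09, limma adjusted p = 0.329). The median of the 15 measured genes of the nuclear complex and co-repressors was 0.06. Only RBPJ among them had groups without overlap (6.67%), against 17.2% of all probe sets. Its paralogue RBPJL differed by -0.46 (adjusted p = 0.470), or -0.24 without IR-A tumour 1.

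Genes of ligand endocytosis, which pulls on the bound receptor, had a median of -0.11 over 4. The ubiquitin ligase MIB1 read 8.22, 8.06 and 8.25 against 8.54, 8.88 and 8.35, higher in all IR-A tumours by 0.42 (SE 0.15, limma adjusted p = 0.296), or 0.27 without IR-A tumour 2. Its relative MIB2 differed by -0.41 with overlap (adjusted p = 0.452), or -0.63 without control tumour 2. Of 6 atypical or further ligands, DLK2 lay lower without overlap, at 6.52, 5.99 and 6.61 in control and 5.82, 5.94 and 5.95 in IR-A tumours. It differed by -0.47 (adjusted p = 0.308), and DLL3 differed by -0.17 (adjusted p = 0.517).

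Turnover genes and modulators had a median of 0.14 over 16. SEL1L, an adaptor of ER-associated degradation whose worm relative modulates Notch, had the smallest p of all 70 genes. It read 8.63, 8.45 and 8.65 in control and 9.14, 8.99 and 9.25 in IR-A tumours, a difference of 0.55 (SE 0.11, limma adjusted p = 0.147). DVL1, a Wnt signalling protein, differed by -0.37 with overlap (adjusted p = 0.335).

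Other reported targets had a median of -0.21 over 15 measured genes, with 1 higher and 3 lower without overlap, against 7.73% and 9.45% of all probe sets. SOX9, a factor of bile duct cells, read 8.35, 8.16 and 7.71 in control and 8.70, 8.43 and 8.42 in IR-A tumours, a difference of 0.45 (SE 0.18, limma adjusted p = 0.345), or 0.27 without control tumour 3. MYC, a growth regulator with many other inputs, read 8.08, 7.14 and 6.31 against 6.02, 5.60 and 6.19. It differed by -1.24 (SE 0.43, adjusted p = 0.282), and the control tumours themselves were spread widely. Without control tumour 1 it differed by -0.79. The other lower ones, named after their values were seen, were CCND1 (-0.34) and HES2 (-0.21). HES2 was below the array's median on all 6 arrays. Of 11 listed bile duct and progenitor markers, SOX9 among them, 8 were measured. Their mean was 5.74 to 6.30 in control and 6.22 to 6.37 in IR-A tumours. Of the 8, 6 had a difference above 0 and 2 below, and the median was 0.21. The part of such cells in the values of JAG1, NOTCH2 and HES1 was not tested.

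**Figure D4:**
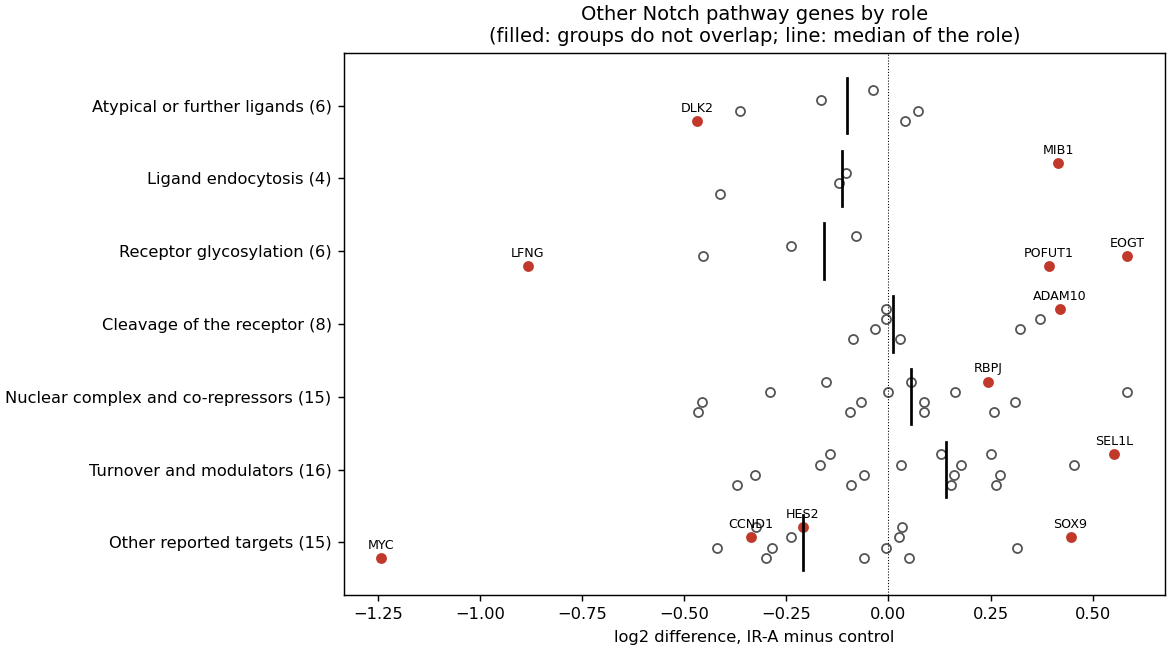
Log2 difference (x axis, IR-A minus control) of 70 other Notch pathway genes, grouped by role (y axis, number of genes in parentheses); filled and named points have groups that do not overlap, and lines are medians. The 12 named genes lie on both sides of 0, from MYC at -1.24 to EOGT at 0.58.

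JAG1's profile over the 6 tumours was set against every named gene by the root mean square distance of profiles centred on their own means. The nearest were BBS5 and FZD10-AS1, at 0.048 and 0.049 log2 units, both below the array's median on all 6 arrays. ZNF136 followed at 0.050, OTUD7B at 0.052 and SEC22B at 0.052. BBS5 is a subunit of a ciliary trafficking complex, OTUD7B a deubiquitinase and SEC22B a trafficking protein of the ER. Their differences between the groups ran from 0.46 for FZD10-AS1 to 0.59 for SEC22B. Picking genes by this distance fixes differences near that of JAG1. Within a distance of 0.15 of JAG1 lay 336 named genes.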

How the data were processed

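The submitters' processing notes name RMA and Partek but no version or role. The deposited values are log2 signals by the authors, with the scale read from their range. The sources used here do not give the array model, probe set definition or genome build. GEO's probe annotation named 23934 of 24726 probe sets. RMA compresses differences of dim probe sets.

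Groups came from sample titles. limma 3.58.1 in R 4.3.3 (lmFit, eBayes, no filter) compared 3 IR-A with 3 control tumours, adjusting p over all probe sets (Benjamini-Hochberg), and was tested on simulated data. No 2 arrays shared more than 4.15% of values, and the labels give no batch. The members and lists were chosen with earlier results of these data known. All members were named, and of each pathway role the 2 genes of smallest p. Of each marker list up to 3 of smallest p could be named, and for the member of smallest p the 5 nearest profiles. Alternatives were other scalings, filters, moderation, array weights, a replicate block, probe set means, thresholds and left-out tumours. The number of arrays limits precision. Figures used matplotlib 3.10.9 in Python 3.11.15.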

Additional observations from a re-analysis of the deposited data

How the results depend on the processing

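Over 16 alternatives, 5 of the 10 members (NOTCH2, JAG1, DLL1, HES1 and HEY1) kept their direction, and no member passed the adjusted threshold in limma (JAG1 adjusted p 0.0589 to 0.477). DLL1 and HEY1 had 15, as they were absent without the dimmest 50% of probe sets. Left-out tumours gave NOTCH1 -0.013 to 0.17, NOTCH3 -0.059 to 0.33, NOTCH4 -0.15 to 0.032, JAG2 -0.23 to 0.021 and DLL4 -0.11 to 0.51. Recomputing the counts at an unadjusted p under 0.05 in each alternative was added after the data were seen. For members the count of 2 was 1 without moderation, where NOTCH2 was lost. It was 3 with quantile normalization, array weights, or without control tumour 2 or 3 or IR-A tumour 1 or 2. The pathway's 14 became 8 without the dimmest 50%, 9 with an intensity trend, 5 without moderation, 9 with the replicate block, and 3 to 23 with a tumour left out. Over the whole table, 3493 probe sets were under that threshold (2156 to 5206 with a tumour left out), and 18 had an adjusted p under 0.1. The 0 probe sets called became 14 and 20 without the dimmest 25% and 50%, 11 with array weights, and 0 to 308 with a tumour left out. Same-numbered tumours did not deviate together (correlations of -0.29, -0.36 and 0.02), so no pairing by number was seen. Differently numbered tumours reached 0.50. These deviations were centred within groups of 3, so the correlations cannot exclude a pairing. The replicate block left the calls at 0 and JAG1 at an adjusted p of 0.344. The files give no background signal, so differences of dim members are the least certain.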

Other observations

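The genes beside the members on their chromosomes were counted in RefSeq's order, 10 measured genes on each side where the chromosome allowed. Around HEY1, 6 of 20 neighbours were higher and 1 lower at an unadjusted p under 0.05 in limma, with a median difference of 0.15. Around JAG1 the counts were 2 higher and 0 lower, and around NOTCH2 they were 1 higher and 2 lower, with medians of -0.04 and -0.06. HES1 had 3 higher and 1 lower with a median of 0.00044. Over all probe sets 7.10% were higher and 7.03% lower at that threshold. The comparison was chosen after the data were seen and was not tested.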
